A study of Mus musculus with 4 samples.

Results

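The proteasome genes were followed here as 51 probe sets of 40 genes, out of 12422 non-control probe sets on the Affymetrix MG_U74Av2 array. A probe set belonged to them when its only annotated symbol began with Psma, Psmb, Psmc, Psmd or Psme, and the inducible subunits Psmb8 and Psmb9 were left out by that rule. Of the 40 genes, 38 encode subunits, activators or assembly chaperones, and 2, Psmc3ip and Psme3ip1, encode proteins named for binding a subunit and are themselves no part of the particle. Values of the activator gene Psme2 are not used here, since both (2) probe sets that carry its symbol carry another one too. Liver RNA came from male hybrid B6SJL mice of 58 to 60 days, which had been given a chow of 10% protein and 70% carbohydrate for 4 weeks once weaned. The study set 2 arrays of non-transgenic, wild-type mice against 2 arrays of PEPCK-TAg mice, which express the large T (LT) and small t (st) oncoproteins of SV40 from the Pck1 promoter, one known to be active in hepatocytes and in kidney. The series title puts the question as what long exposure to small amounts of these oncoproteins does to hepatic expression. Whether the arrays of a genotype hold separate animals, pools or repeat measurements is not given in the sources used here, so a p-value covers the array-to-array spread alone, and that may be technical.

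The proteasome is the protease that destroys proteins marked with ubiquitin chains. Its barrel-shaped 20S core has outer rings of alpha subunits, which gate the entrance, and inner rings of beta subunits, of which Psmb5, Psmb6 and Psmb7 carry the catalytic sites. The 19S particle docks on the core. Its base holds a receptor for ubiquitin chains and a ring of ATPases that unfold the substrate, and its lid cuts the chain off. Activators of the Psme family dock in place of the 19S particle. Under interferon, cells put Psmb8, Psmb9 and Psmb10 in place of the 3 catalytic subunits and make more Psme1, and this immunoproteasome yields peptides for antigen presentation.

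The data are MAS5 signals, 1 per probe set and array, with the same trimmed mean of 250.2 on each array. Differences are given as PEPCK-TAg minus wild type on the scale of log2(signal + 13), with p-values from limma adjusted by the Benjamini-Hochberg method over all 7453 probe sets that passed a filter on mean signal. The liver gene Alb measured 16723 and 14430 in wild-type liver, 13339 and 12446 in PEPCK-TAg liver. Of the 51 proteasome probe sets 43, reading 37 genes, passed the filter and are called measured.

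Of the 43 measured probe sets, 3 rose in PEPCK-TAg liver and 0 fell at an adjusted p under 0.05 by limma. They read Psma1 of the alpha ring, Psmd12 of the lid and Psme1 of the activators. The 3 rises are 6.98% of the measured members, where 6.40% of all tested probe sets rose and 3.07% fell, so the share of called members was near the background. At an unadjusted p under 0.05 by limma there were 11 members higher and 1 lower. Over all 7453 tested probe sets, 1156 were higher and 823 lower at that level. Small differences leaned upwards: the PEPCK-TAg arrays were both above the wild-type arrays for 23 members (53.5%, background 30.2%) and below them for 6 (14.0%, background 26.3%), and the other 14 overlapped. The median difference over the 43 members was 0.23, against 0.01 over all tested probe sets, and stayed above 0 with quantile normalization (0.26), cyclic loess (0.25) and median centring (0.09), which moved the median of all probe sets to -0.14. In bulk liver RNA, fewer cells of a type and less RNA per cell cannot be told apart.

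The promoters of the called genes, and of Psme3, the nearest relative of Psme1 among the measured genes, are shown to give the sequence context of the genes that moved and of a relative that did not pass the test. Each is the 250 bases before the annotated start from RefSeq (build GRCm38.p6), written 5′ to 3′ on the strand of the gene. They lie at chr7:114276117-114276366 (minus strand) for Psma1, and on the plus strand at chr11:107479278-107479527 for Psmd12, chr14:55578244-55578493 for Psme1 and chr11:101315963-101316212 for Psme3. Capitals mark matches, on either strand, to 5 motifs: the antioxidant response element core TGACNNNGC, the CCAAT box, the ETS core ACTTCCG, the GC box GGGCGG and the interferon-gamma activated sequence TTCNNNGAA.
Psma1: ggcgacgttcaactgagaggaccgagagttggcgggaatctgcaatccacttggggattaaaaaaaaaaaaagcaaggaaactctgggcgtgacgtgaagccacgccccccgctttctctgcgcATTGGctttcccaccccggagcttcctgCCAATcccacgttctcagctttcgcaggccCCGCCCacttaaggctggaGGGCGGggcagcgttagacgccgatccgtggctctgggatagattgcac
Psmd12: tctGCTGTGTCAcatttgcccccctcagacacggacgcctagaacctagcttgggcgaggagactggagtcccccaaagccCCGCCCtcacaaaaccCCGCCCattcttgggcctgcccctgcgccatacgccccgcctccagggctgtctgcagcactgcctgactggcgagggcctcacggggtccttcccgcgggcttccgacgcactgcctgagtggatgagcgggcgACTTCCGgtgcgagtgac
Psme1: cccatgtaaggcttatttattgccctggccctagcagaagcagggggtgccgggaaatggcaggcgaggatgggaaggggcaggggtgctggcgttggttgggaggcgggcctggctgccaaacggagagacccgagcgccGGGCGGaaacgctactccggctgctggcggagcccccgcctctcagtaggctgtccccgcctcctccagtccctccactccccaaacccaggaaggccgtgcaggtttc
Psme3: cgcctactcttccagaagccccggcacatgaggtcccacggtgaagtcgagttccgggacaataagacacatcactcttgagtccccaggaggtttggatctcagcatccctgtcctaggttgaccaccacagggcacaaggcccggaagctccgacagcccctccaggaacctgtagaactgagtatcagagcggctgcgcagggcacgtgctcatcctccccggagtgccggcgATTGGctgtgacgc
The Psma1 promoter held 2 CCAAT boxes and 2 GC boxes. That of Psmd12 held 1 antioxidant response element core, 2 GC boxes and, 18 bases before the start, 1 ETS core. That of Psme1 held 1 GC box, and that of Psme3 1 CCAAT box.

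Promoter entries were found for 34 of the 40 genes, with 37 annotated starts. The ETS core stood in 10 of the 37 windows (27.0%), against 4.92% of all 32851 mouse promoters and 9.57% of the 5893 promoters of genes tested here. Its 9 genes were Psma4, Psmc1, Psmc2, Psmd6, Psmd8, Psmd12, Psmd13, Psmd14 and Psme4, so it was found in 1 of the 3 genes that rose and also in Psme4, which had the lowest difference of all measured members. The antioxidant response element core stood in 5 windows (13.5%, against 10.2% of all promoters and 11.5% of those of tested genes), those of Psmb5, Psmb6, Psmc6, Psmd9 and Psmd12. CCAAT boxes stood in 37.8% (33.8% and 35.1%) and GC boxes in 54.1% (32.7% and 56.0%) of the windows. The interferon-gamma activated sequence stood in 0 of the 37 windows, against 7.02% and 5.72%. A match is a string of letters and does not show that a factor binds.

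**Figure D1:**
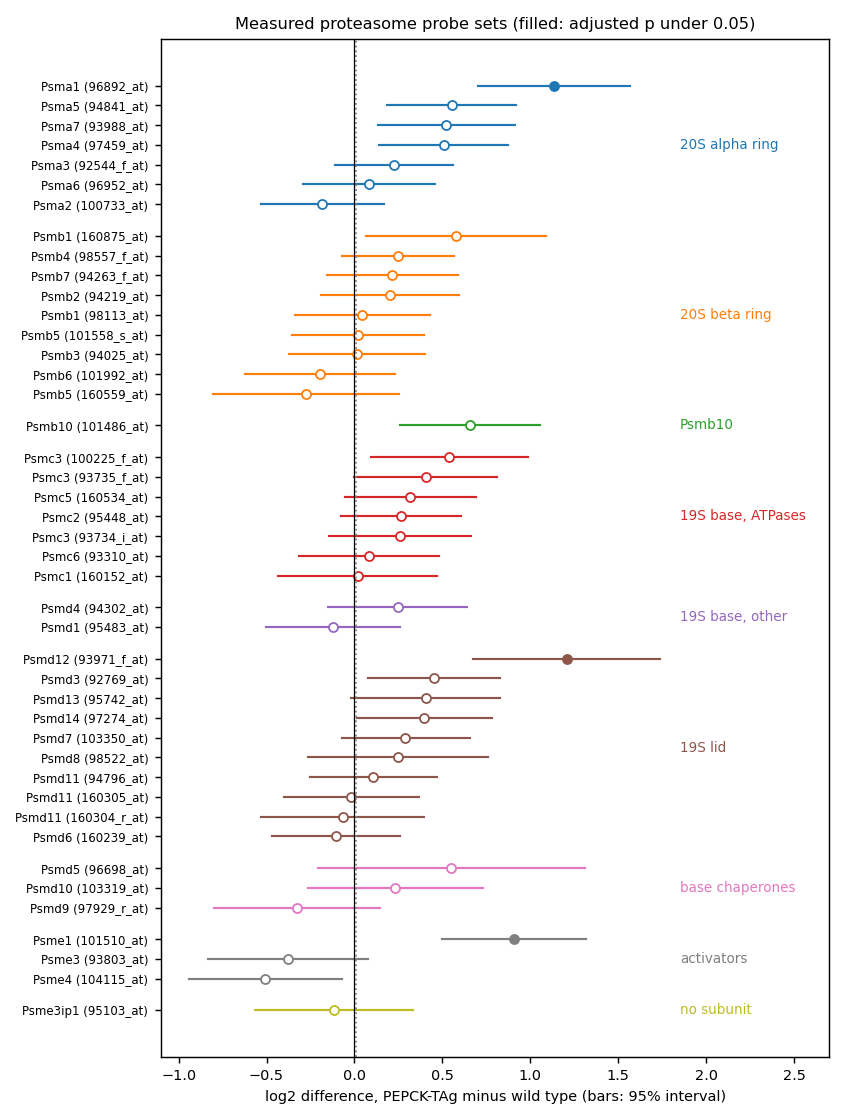
Log2 difference (PEPCK-TAg minus wild type, horizontal axis) of each of the 43 measured probe sets with its 95% interval from limma, grouped by class. Filled points passed an adjusted p of 0.05 and belong to Psma1, Psmd12 and Psme1, and the dotted line, next to 0, is the median of all tested probe sets at 0.01.

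The alpha ring had the highest median among the classes with 3 or more measured probe sets. All 7 of its genes on the array were measured, 1 rose, 6 had a difference above 0 (50.5% over all tested probe sets), and the class median was 0.51 (0.36 with median centring). Psma1, a subunit of this ring, measured 308 and 390 in wild-type liver, 738 and 817 in PEPCK-TAg liver. Both PEPCK-TAg arrays were high and lay well apart from the wild-type arrays. Psma1 rose by 1.13 ± 0.18 in log2 (SE, n = 2 arrays a group, limma Benjamini-Hochberg adjusted p = 0.0149), which is 2.20-fold. It kept its call without each array in turn, with adjusted p from 0.0211 to 0.0481.

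Psma4, Psma5 and Psma7, further alpha subunits, also had both PEPCK-TAg arrays above both wild-type arrays (30.2% over all tested probe sets), but did not pass. Psma4 measured 1099 and 966 for wild type, 1523 and 1419 for PEPCK-TAg, a difference of 0.51 ± 0.15 (SE; limma adjusted p = 0.0927). Psma5 measured 690.4 and 767 against 1053 and 1092, a difference of 0.55 ± 0.15 (limma adjusted p = 0.0732). Psma7 measured 983 and 1085 against 1362 and 1630.3, a difference of 0.52 ± 0.16 (limma adjusted p = 0.101). The gaps of these 3 genes were wider than the gap between arrays of 1 group, yet well short of that of Psma1 on the log2 scale. Psma3 (0.22), Psma6 (0.08) and Psma2 (-0.18) made up the rest, with Psma2 the one alpha subunit whose PEPCK-TAg arrays, 842 and 839.7, both lay below its wild-type arrays, 979 and 932. Psma6 was among 8 measured members whose sign turned under at least 1 of the 3 scalings, none with a size above 0.11.

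In the beta ring no probe set passed. Of its 9 measured probe sets, reading 7 genes, 0 passed by limma and 1 was higher at an unadjusted p under 0.05. The class median was 0.04, and -0.10 with median centring. With 1 probe set a gene it was 0.20, so the low value depends on genes that were read more than once. The catalytic subunit Psmb5 was read by 2 measured probe sets. The brighter measured 747 and 789.5 in wild-type liver, 729.9 and 832 in PEPCK-TAg liver, so its groups overlapped, and the 95% interval of its difference ran from -0.36 to 0.40 in log2, which leaves out changes of 2-fold. The dimmer measured 131.3 and 103.7 against 102.1 and 86.8, with both PEPCK-TAg arrays below, and did not pass (-0.28, limma adjusted p = 0.487). Psmb6, another catalytic subunit, measured 365 and 458 against 354 and 357 (-0.20), and Psmb7, the third, 642.5 and 703.5 against 816.5 and 749.7 (0.21). Neither passed, with limma adjusted p of 0.545 and 0.442.

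Among the structural beta subunits, Psmb2 (0.20), Psmb3 (0.01) and Psmb4 (0.25) did not pass. The measured probe set of Psmb4 was bright and steady, at 2685 and 2728 for wild type, 3109 and 3321.5 for PEPCK-TAg. The other probe sets of Psmb4 were below the filter, at 20.3 to 36.6 and at 2.0 to 10.8 on the 4 arrays. Psmb1 was read by 3 probe sets that differed from each other: 1 had 757 and 578.5 against 859.8 and 1151 (0.58, limma adjusted p = 0.149), another 850.1 and 721.5 against 809 and 807 (0.04), and the third was below the filter. The larger value therefore was not shared by the other measured probe set of the gene.

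**Figure D2:**
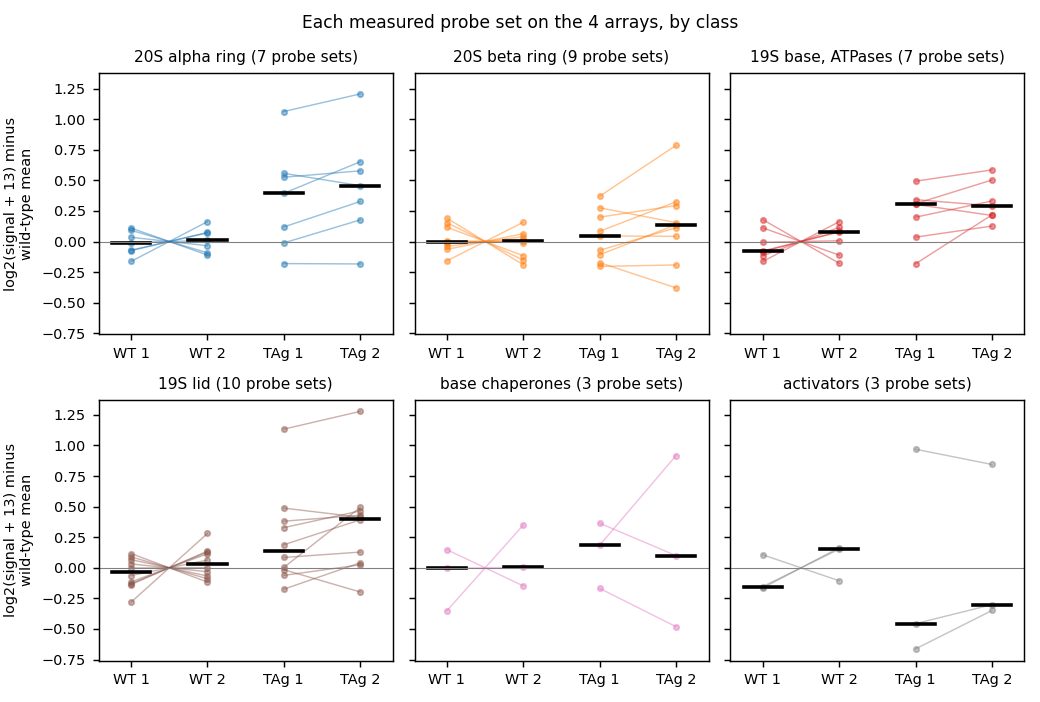
Log2(signal + 13) of each measured probe set minus its wild-type mean, on the 4 arrays (WT, wild type; TAg, PEPCK-TAg), for the 6 classes with 3 or more probe sets; lines join the arrays of 1 group and black bars are medians. On both PEPCK-TAg arrays the median lies above 0 in every class drawn but the activators, where it lies below; in the beta ring it lies close to 0.

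Psmb10, the inducible counterpart of Psmb7, measured 374.5 and 319 in wild-type liver, 551 and 556 in PEPCK-TAg liver. The PEPCK-TAg arrays were nearly equal and both above the wild-type arrays. Its difference was 0.66 ± 0.17 in log2 and just missed the threshold (limma Benjamini-Hochberg adjusted p = 0.0580). With the replicate number as a block the limma adjusted p was 0.0423, though the titles do not say that the numbers pair arrays. The limma adjusted p moved away from the threshold with quantile normalization (0.0909) and median centring (0.102). It moved towards the threshold without passing with the filter at the 60th percentile (0.05002) and with 1 probe set a gene (0.0525).

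The other inducible subunits both rose. Psmb8, the counterpart of Psmb5, measured 649 and 578.5 for wild type, 1573 and 1484 for PEPCK-TAg, and rose by 1.30 ± 0.15 (limma adjusted p = 0.00548). Psmb9, the counterpart of Psmb6, measured 257 and 213.5 against 836 and 861, and rose by 1.80 ± 0.17 (limma adjusted p = 0.00238). Within each array the log2 change of Psmb9 exceeded that of Psmb6 by 1.998, that of Psmb8 exceeded that of the brighter Psmb5 probe set by 1.28, and that of Psmb10 exceeded that of Psmb7 by 0.44. In all 3 comparisons the PEPCK-TAg arrays were both above the wild-type arrays in this difference. A two-sided exact permutation test gave p = 0.333 for each, the smallest that 2 arrays against 2 allow.

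**Figure D3:**
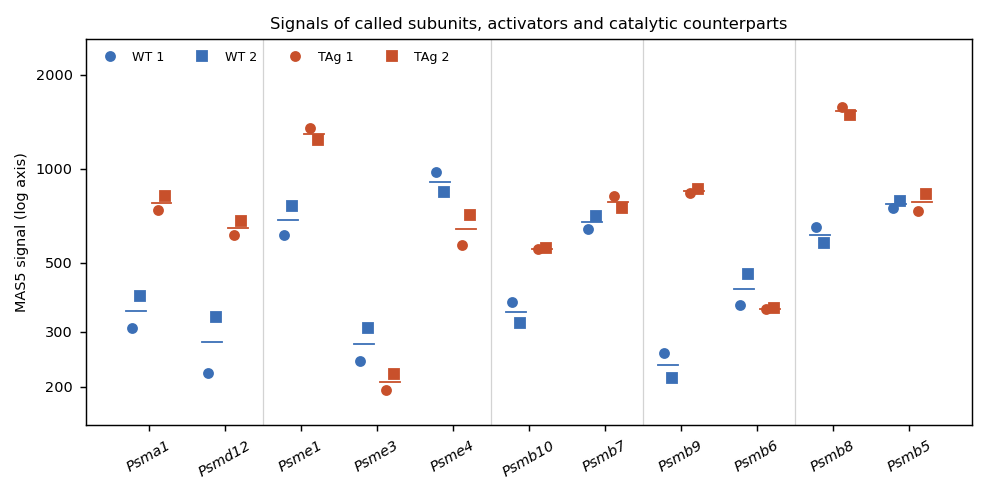
MAS5 signal on each array (log axis) of the 3 called genes, the other measured activators, and each inducible catalytic subunit beside its constitutive counterpart; blue is wild type, red PEPCK-TAg, circles replicate 1, squares replicate 2, and horizontal lines group means. The groups lie apart for Psmb8, Psmb9 and Psmb10, while those of Psmb5, drawn from the brighter of its probe sets, overlap.

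The ATPase ring of the 19S base had differences above 0 in all 7 measured probe sets, which read 5 genes, though 0 passed by limma. The share above 0 over all tested probe sets was 50.5%. The median of the ring was 0.27 (0.12 with median centring, which turned Psmc1 and Psmc6 below 0). Psmc3 was read by 3 measured probe sets, with differences of 0.54, 0.41 and 0.26. The brightest of them measured 593 and 699 for wild type, 801 and 918 for PEPCK-TAg (limma adjusted p = 0.189). All 3 had both PEPCK-TAg arrays above both wild-type arrays (30.2% over all tested probe sets). For 2 of them, as for the measured probe sets of Psma3, Psmb4 and Psmb7, the suffix _f_at marks sequence that related transcripts can share, so these values can hold their signal. The brighter Psmb5 probe set ends in _s_at and that of Psmd9 in _r_at, so neither is a plain _at probe set. Psmc5 measured 577 and 644 against 776 and 749 (0.32), and Psmc2 1492 and 1505 against 1722 and 1889 (0.27). Psmc6 (0.08) and Psmc1 (0.02) overlapped between the groups, and Psmc4 was below the filter.

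Of the other base subunits, Psmd4, the receptor for ubiquitin chains, measured 881 and 1028 for wild type, 1058 and 1210.3 for PEPCK-TAg (0.25), and the scaffold subunit Psmd1 967 and 1032 against 849 and 988 (-0.12). Neither passed by limma, with adjusted p of 0.402 and 0.687. The other scaffold subunit, Psmd2, was below the filter, at 39.1 to 48.9 on the 4 arrays.

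The lid held the largest difference of all measured members. Psmd12, a structural lid subunit, measured 222 and 333 in wild-type liver, 613 and 679 in PEPCK-TAg liver. The wild-type arrays differed widely, but the PEPCK-TAg arrays were both higher still. Psmd12 rose by 1.21 ± 0.22 (SE, limma Benjamini-Hochberg adjusted p = 0.0225), 2.31-fold. Without wild-type replicate 1 the difference was 0.93 and the call was lost (limma adjusted p = 0.0553), as it was without PEPCK-TAg replicate 2 (1.13, limma adjusted p = 0.0553). Its probe set, the only one for the gene, also ends in _f_at.

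The rest of the lid did not follow at that size. Of its 10 measured probe sets, 7 had a difference above 0 and 5 had PEPCK-TAg arrays above both wild-type arrays. Over all tested probe sets the shares were 50.5% and 30.2%. The lid median was 0.27 (0.12 with median centring). Psmd14, the enzyme that cuts the chain from the substrate, measured 706 and 622.5 for wild type, 836 and 921 for PEPCK-TAg, and its partner Psmd7 1169 and 1171 against 1335 and 1539. Their differences were 0.40 ± 0.16 and 0.29 ± 0.15, with limma adjusted p of 0.177 and 0.282. Psmd3 measured 388 and 370.4 against 537 and 509 (0.45, limma adjusted p = 0.131), and Psmd13 229 and 279.8 against 334 and 346 (0.41, limma adjusted p = 0.204). All 4 had groups that did not overlap. Psmd8 (0.25) and Psmd6 (-0.11) overlapped, the latter turning to 0.01 with quantile normalization. Psmd11 was read by 3 measured probe sets at 0.11, -0.02 and -0.07, each with overlapping groups.

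Chaperones that assemble the base were mixed, and 0 of 3 passed by limma. Psmd10, known as gankyrin, which binds the product of Rb1 and is known from liver tumours, measured 96.4 and 97.1 for wild type, 128 and 105 for PEPCK-TAg (0.23 ± 0.21, limma adjusted p = 0.541). Its PEPCK-TAg arrays differed more from each other than the nearer one did from wild type. Psmd5 measured 396 and 652 against 579.8 and 972 (0.55 ± 0.32), with the widest error of any measured member. Psmd9 measured 412 and 333 against 328 and 261.5 (-0.32).

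Of the activators, 1 passed the test. Psme1, the interferon-inducible activator, measured 613 and 761 in wild-type liver, 1349.6 and 1237 in PEPCK-TAg liver. The groups did not overlap, and Psme1 rose by 0.91 ± 0.17 (SE, limma Benjamini-Hochberg adjusted p = 0.0238), 1.88-fold. The call was not kept without wild-type replicate 1 (0.75, limma adjusted p = 0.0762), PEPCK-TAg replicate 1 (0.84, limma adjusted p = 0.0829) or PEPCK-TAg replicate 2 (0.97, limma adjusted p = 0.0522). A dim probe set of the same gene, below the filter, measured 48.8 and 20.2 against 20.9 and 26.0.

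Psme3, the nuclear relative of Psme1, measured 242 and 307 for wild type, 195 and 219 for PEPCK-TAg, and Psme4, an activator known from chromatin and sperm, 977 and 842 against 568 and 709. In both genes the PEPCK-TAg arrays were the lower ones. Their differences were -0.38 ± 0.19 and -0.51 ± 0.18 and did not pass (limma adjusted p = 0.265 and 0.139). Within the arrays, the change of Psme1 exceeded that of Psme3 by 1.29 and that of Psme4 by 1.41 (exact two-sided permutation p = 0.333 for each, again the smallest possible). Psme4 was the one measured member lower at an unadjusted p under 0.05.

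**Figure D4:**
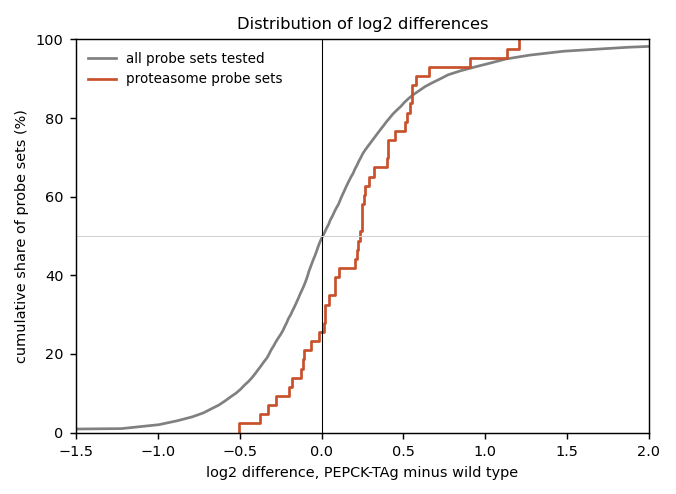
Cumulative share (percent) of probe sets by log2 difference, PEPCK-TAg minus wild type, for the 43 measured proteasome probe sets (red) and all 7453 tested (grey). The red curve lies to the right around the middle, with medians of 0.23 and 0.01, and reaches 100% by 1.21 while the grey curve has a longer tail.

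In spread, proteasome differences beyond 1 in log2 were few, as they were over all tested probe sets, and those beyond 0.5 leaned upwards. Of the 43 measured members 2 (4.65%) differed by more than 1 in log2 upwards and 0 downwards, against 6.37% and 1.96% of all tested probe sets. Above 0.5 there were 10 members (23.3%, against 16.4%), and below -0.5 there was 1 (2.33%, against 10.9%). For 37 of the 43 members the 95% interval lay within a 2-fold change either way, with a median SE of 0.16. The same held for 5075 of all 7453 tested probe sets, with a median SE of 0.20. The median gap between the arrays of a genotype, in size, was 0.21 for wild type against 0.16 for PEPCK-TAg, while the median size of the difference between genotypes was 0.26. Around their own 4-array means the members lay at medians of -0.11 and -0.10 on the wild-type arrays and of 0.03 and 0.17 on PEPCK-TAg replicates 1 and 2, so replicate 2 stood higher. Without it, the median difference of the members was 0.15.

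The 8 probe sets below the filter had signals between 2.0 and 53.2. They were the only ones for Psmc4, Psmd2 and Psmc3ip. Psmc3ip, which encodes a partner of the strand exchange enzymes of recombination and is no proteasome subunit, measured 8.2 and 5.7 in wild-type liver, 53.2 and 28.1 in PEPCK-TAg liver. It was not called with no filter, where the same 3 genes were the called members. Psme3ip1, which encodes a protein that binds Psme3, measured 240.2 and 279.8 against 215 and 264 (-0.12).

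Genes that work beside the proteasome were taken from a list of assembly factors, deubiquitinases, shuttles, ubiquitin enzymes and transcription factors, with 1 probe set a gene. Of 25 measured, 0 rose and 0 fell by limma, and the median was 0.06. At an unadjusted p under 0.05, 6 were higher and 1 lower, against 1156 and 823 of all 7453 tested probe sets. The core assembly chaperone Psmg2 measured 131 and 133 for wild type, 205 and 224 for PEPCK-TAg (0.65 ± 0.17, limma adjusted p = 0.0671), while Psmg1 (0.18), its partner, did not pass. Sem1, a small lid subunit, measured 369.9 and 359.6 against 538 and 540.4 (0.55 ± 0.16, limma adjusted p = 0.0774). The shuttle Ubqln2 measured 114 and 139 against 222 and 220.4 (0.76 ± 0.19, limma adjusted p = 0.0540). Psmg2, Sem1 and Ubqln2 had PEPCK-TAg arrays above both wild-type arrays and stopped short of the threshold. Of the 25 genes, 12 had both PEPCK-TAg arrays above and 5 had both below (30.2% and 26.3% over all tested probe sets).

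The transcription factors that act on proteasome genes differed. Nfe2l2 (NRF2) measured 695 and 1094 in wild-type liver, 1574 and 1646 in PEPCK-TAg liver (0.87 ± 0.23, limma adjusted p = 0.0628). Nfe2l1, which drives proteasome genes when the protease is short, measured 488 and 623 against 441 and 458 (-0.29 ± 0.18, limma adjusted p = 0.372). Both deubiquitinases that sit at the particle, Usp14 (0.63) and Uchl5 (0.50), had PEPCK-TAg arrays above both wild-type arrays and did not pass.

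Around the inducible subunits, 6 of 13 measured genes of antigen presentation and interferon signalling rose and 0 fell by limma, with a median of 0.86. Over all 7453 tested probe sets 6.40% rose and 3.07% fell, with a median of 0.01. Besides Psmb8 and Psmb9, already given above, the genes of the list that rose were the peptide transporters Tap1 (0.76) and Tap2 (1.30), their partner Tapbp (1.04) and the receptor Ifngr1 (1.18). The class I genes H2-K1 (-0.02), H2-D1 (-0.12) and B2m (-0.17) did not pass. The probe sets of H2-K1 and H2-D1 end in _f_at, so their values can hold signal of related transcripts. Ifng itself was below the filter, at 2.6 to 5.5 on the 4 arrays.

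Markers of cell types, hepatocytes among them, and of dividing cells were read as well, and calls by limma fell in some of the lists only. All 12 macrophage markers on the array were measured, and 5 rose and 0 fell by limma. Over all tested probe sets the shares were 6.40% and 3.07%. For 8 of the 12 the groups did not overlap and PEPCK-TAg was higher (30.2% over all tested probe sets). For the rest the groups overlapped. The summed signal of the 12 was 3491 to 6349 on the wild-type and 11384 to 15029 on the PEPCK-TAg arrays. Bright genes weigh most in this sum, and Mpeg1 alone went from a mean of 321.5 to 2960. All 7 markers of dividing cells rose, from a sum of 796 to 843 to one of 6277 to 8040. Of 7 hepatocyte markers 1, Apoa2, fell by limma (-0.74), and their sum was 60498 to 68949 against 45825 to 51383. At an unadjusted p under 0.05 there were 4 lower, and 6 had both PEPCK-TAg arrays below both wild-type arrays. Over all 7453 tested probe sets, 823 were lower at that level and 26.3% had both PEPCK-TAg arrays below. Of 8 T and natural killer cell markers 1 was measured, with sums of 192 to 242 and 204 to 222, and of 4 bile duct markers 0. Measured endothelial (7), B cell (2) and erythroid (3) markers gave 0 calls by limma, with 2, 1 and 1 lower at an unadjusted p under 0.05, and of 4 measured stellate markers 1, Col3a1, rose. No marker was listed at 0. The part of these cells in the proteasome values was not tested.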

How the data were processed

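The 4 arrays, 2 wild-type and 2 PEPCK-TAg, were grouped and numbered by their titles. Per the submitters' processing notes, the deposited intensity values are linear-scale MAS5 signals. Software version, scaling target and detection calls are not stated there. Each array had the same trimmed mean (2% off each end) of 250.2, so no further scaling was applied. Per the file headers, the arrays shared chip lot, fluidics station and scan day, with a module and scan time each.

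Symbols came from the platform annotation, and the Entrez numbers of all 51 members matched the RefSeq gene table of GRCm38.p6 with 0 symbols changed. After 66 control probe sets were removed, signals were analysed as log2(signal + 13), 13 being 5% of the trimmed mean, which understates changes of dim genes. Probe sets at or above the 40th percentile of mean log2 were kept. The genotypes were compared across all 7453 with limma 3.58.1 in R 4.3.3 (lmFit, eBayes with a mean-variance trend; 2 residual and 4.61 prior degrees of freedom), two-sided, with Benjamini-Hochberg adjustment and a threshold of 0.05. The procedure was run on simulated data with planted changes and noise independent between probe sets and arrays. That setting does not cover effects shared across an array, and no result here rests on it. For a gene of the other lists, the probe set of highest mean was used.

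All members could be named, and of each other list, or named part of it, genes past the threshold and up to 4 of smallest p; Psmg1, H2-K1, H2-D1, B2m, Ifng and Alb were chosen after their values were seen. Members and lists were chosen with earlier results of these data known. Alternatives changed scaling, offset, filter, variance model, replicate block, arrays and probe sets. The replicate numbers come from the titles, which do not say that they pair arrays.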

Additional observations from a re-analysis of the deposited data

How the results depend on the processing

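Of 594 values of single proteasome probe sets recomputed under 14 alternatives, 562 kept their direction and their side of the threshold, 25 values of 11 uncalled probe sets turned sign (none larger in size than 0.12 as reported), 6 lost their call, 1 gained one (Psmb10 with the replicate block) and 0 of the called turned sign. The 6 lost calls are those of Psmd12 and Psme1 without single arrays, given with the genes, and that of Psme1 with no mean-variance trend (limma adjusted p just above the threshold). Psma1, Psmd12 and Psme1 kept their calls under the 3 scalings, both other offsets, both other filters, the replicate block and 1 probe set a gene. The count of higher members was 1 to 3 without single arrays (Psma1 alone when wild-type replicate 1 or else PEPCK-TAg replicate 2 was left out), and the lower count was 0 throughout. With the replicate block 4 members were higher. The median of the members was 0.088 with median centring and 0.15 to 0.29 without single arrays. Over all probe sets, without single arrays, 288 to 420 were higher and 110 to 143 lower; the lower count was 409 with median centring, 105 with no filter, 117 with no mean-variance trend and 444 with the replicate block. Deviations of same-numbered arrays correlated with r = 0.181 over 7453 probe sets, which are not independent, and 2 pairs do not show whether the numbers pair the arrays. The causes were not tested. The number of arrays limits every value, and without detection calls the 8 dim probe sets carry no call of absence.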
